A study of Mus musculus with 12 samples.

Results

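The expression of 10 genes of tumour necrosis factor (TNF) and of the feedback around NF-κB was followed in scars of mice with and without *Tem1* (*Cd248*, endosialin), with and without mechanical traction. The genes were chosen by symbol: *Tnf*, *Tnfaip3*, *Nfkbia*, *Nfkbiz*, *Nfkb1*, *Nfkb2*, *Rela*, *Relb*, *Birc3* and *Tnip1*. All 10 were found among the 35976 genes listed in the count data, and all 10 were among the 18853 genes that passed the filter on low counts and were tested. The scars came from 4 groups of 3 male mice aged 8 to 12 weeks, on a C57BL/6J background after 10 generations of backcross. Tem1WT/WT mice carry the intact gene, and in Tem1lacZ/lacZ mice the only exon of *Tem1* is replaced by the *lacZ* reporter in all cells, so the loss is not limited to fibroblasts. All mice received a 1.5-cm wound on the back and, 6 days later, the same device. The traction groups had the device lengthened each day by 1 mm until 8 mm was reached, whereas the sham groups wore it at a fixed length. RNA of whole scar tissue was sequenced, so fewer cells of a type and less RNA per cell cannot be told apart in any value given here. Unwounded skin was not analysed here, so all levels are those of healing wounds.

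TNF is a cytokine made mainly by activated macrophages and other immune cells, and its binding to TNF receptor 1 leads through ubiquitin ligases and the IκB kinase complex to the release of NF-κB dimers from IκB proteins. *Rela* and *Nfkb1* encode the subunits of the canonical dimer, p65 and p105/p50, and *Relb* and *Nfkb2* those of the non-canonical dimer, RelB and p100/p52. NF-κB in turn induces its own brakes: *Nfkbia* encodes IκBα, which captures the dimers again, *Tnfaip3* encodes A20, which edits ubiquitin chains at the receptor, and *Tnip1* encodes ABIN-1, an A20 partner. *Nfkbiz* encodes the nuclear protein IκBζ, which is needed for a subset of secondary targets, and *Birc3* encodes the ubiquitin ligase cIAP2. In skin wounds this circuit accompanies the early inflammatory phase and is known to be active in keratinocytes, fibroblasts, endothelium and leukocytes.

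The promoters of these genes are the classical place of this feedback, and those that hold the 10-base κB motif are shown. The part of the motif in the levels given here was not tested. RefSeq promoters of GRCm38.p6, 250 bases before to 50 after a start site, were matched by symbol for 7 of the 10 members, and *Nfkbiz*, *Nfkb1* and *Relb* had no entry. Both strands were searched and overlapping matches were kept. The motif was found in a promoter of 4 of these 7 members, *Tnfaip3*, *Nfkbia*, *Nfkb2* and *Tnip1* (57.1%). It was found in 8.46% of all 32851 promoters and in 12.1% of the 13697 tested genes with a promoter. *Tnf*, *Rela* and *Birc3* held no match in their windows, which says only that these letters are not there. In the 4 promoters below, printed 5′ to 3′ on the strand of the gene with matches in capitals, the matches lie close to the start site: 29 to 20 bases upstream in *Nfkbia*, 12 to 3 bases and 125 to 116 bases upstream in *Tnfaip3*, and within 58 bases upstream in *Tnip1* and 39 bases in *Nfkb2*, whose overlapping matches run together. A match is a description of sequence and not of binding. The promoters lie at chr10:19015361-19015660 on the minus strand (*Tnfaip3*), chr12:55492598-55492897 on the minus strand (*Nfkbia*), chr19:46304487-46304786 on the plus strand (*Nfkb2*, the first of its 3 promoters in the table) and chr11:54962891-54963190 on the minus strand (*Tnip1*).
Tnfaip3: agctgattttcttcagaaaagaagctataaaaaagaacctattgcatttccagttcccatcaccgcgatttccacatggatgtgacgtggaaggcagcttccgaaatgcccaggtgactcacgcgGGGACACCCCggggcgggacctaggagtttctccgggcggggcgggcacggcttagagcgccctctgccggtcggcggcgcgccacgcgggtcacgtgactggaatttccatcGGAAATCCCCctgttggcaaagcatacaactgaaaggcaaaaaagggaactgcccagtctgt
Nfkbia: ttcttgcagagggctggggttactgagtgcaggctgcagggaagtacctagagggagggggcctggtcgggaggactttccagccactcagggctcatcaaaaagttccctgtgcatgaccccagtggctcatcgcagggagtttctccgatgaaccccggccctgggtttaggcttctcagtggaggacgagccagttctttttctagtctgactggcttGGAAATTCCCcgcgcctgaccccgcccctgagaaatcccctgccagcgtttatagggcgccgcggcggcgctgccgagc
Nfkb2: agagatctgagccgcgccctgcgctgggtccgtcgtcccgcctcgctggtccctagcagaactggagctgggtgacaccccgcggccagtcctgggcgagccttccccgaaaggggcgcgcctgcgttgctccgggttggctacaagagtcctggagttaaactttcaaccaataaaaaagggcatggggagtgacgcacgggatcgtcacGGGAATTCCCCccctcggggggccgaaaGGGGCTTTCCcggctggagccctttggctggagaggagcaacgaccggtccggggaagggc
Tnip1: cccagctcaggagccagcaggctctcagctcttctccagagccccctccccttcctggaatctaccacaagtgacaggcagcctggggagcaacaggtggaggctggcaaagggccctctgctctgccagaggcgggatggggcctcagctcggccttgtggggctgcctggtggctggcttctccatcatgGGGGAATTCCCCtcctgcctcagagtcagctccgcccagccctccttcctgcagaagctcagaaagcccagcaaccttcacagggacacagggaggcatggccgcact

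In the RefSeq annotation of GRCm38 the ligand gene *Tnf* lies at chr17:35199367-35202007. The subunit genes lie at chr3:135584655-135691969 (*Nfkb1*), chr19:46300994-46312400 (*Nfkb2*), chr19:5637442-5648134 (*Rela*) and chr7:19606217-19629438 (*Relb*). The IκB genes lie at chr12:55489409-55492647 (*Nfkbia*) and chr16:55811375-55838954 (*Nfkbiz*), and the ubiquitin regulators at chr10:19000910-19015410 (*Tnfaip3*), chr11:54910787-54962956 (*Tnip1*) and chr9:7847468-7873205 (*Birc3*). Counts were summed over whole genes, so exons, introns and isoforms are not resolved.

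The libraries held 41536788 to 64644293 counts and levels are given as CPM, each count scaled to the total of its library, after TMM normalization, which also adjusts for library composition. *Cd248* followed the labels, with 92.4 to 337 CPM in the 6 Tem1WT/WT libraries and 0 to 0.248 CPM in the 6 Tem1lacZ/lacZ libraries. Markers of fibroblasts, keratinocytes, macrophages and endothelium were present in every library. One library stood apart before any test: replicate 1 of the Tem1WT/WT traction group was the highest of the 12 libraries for all 10 members, by 1.76 times over the next library for *Rela* and by 14.9 times for *Tnf*. The summed level of 12 neutrophil markers was 7556 CPM in this library, 638 and 301 CPM in replicates 2 and 3 of the same group, and 72.2 to 110 CPM in the 3 Tem1WT/WT sham libraries. Values without this library are therefore set beside the main ones.

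Traction against sham in Tem1WT/WT mice asks which of these genes respond to stretch of a healing wound when *Tem1* is intact. All 10 members had higher fitted levels with traction, from a log2 fold change of 0.93 for *Nfkb1* to 3.67 for *Tnf*. In edgeR's quasi-likelihood test 3 of the 10 rose with an adjusted p under 0.05 over all genes tested: *Nfkb2*, *Rela* and *Relb*. Of all genes tested 9.15% passed this threshold in either direction and 5.61% passed it as higher. All 10 members had an unadjusted p under 0.05, as did 31.4% of all genes. The traction and sham libraries did not overlap, with traction higher, for 4 of the 10 members against 17.7% of all genes, and these 4 were the genes of the subunits *Nfkb1*, *Nfkb2*, *Rela* and *Relb*. The median log2 fold change of the 10 was 1.45, against −0.01 over all genes tested, and it was 0.41 against −0.03 without replicate 1 of the traction group.

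**Figure D1:**
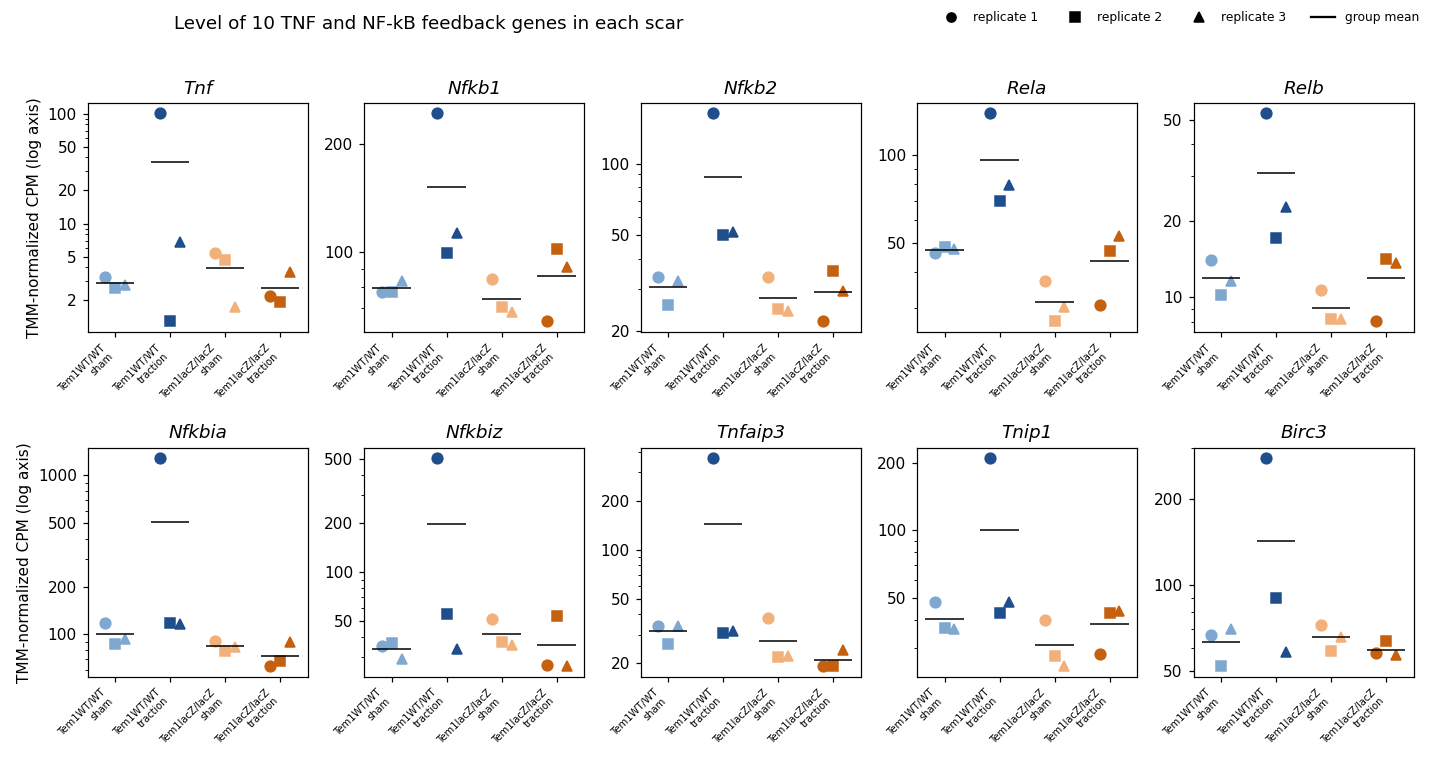
TMM-normalized CPM (log axis, a separate scale for each gene) of the 10 genes in the 12 scars, with 3 libraries in each of the 4 groups shown as points and the group mean as a line. Replicate 1 of the Tem1WT/WT traction group is the highest point in all 10 panels, and for *Nfkb1*, *Nfkb2*, *Rela* and *Relb* the other 2 libraries of that group also lie above the 3 Tem1WT/WT sham libraries.

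The 4 subunit genes were the members in which all 3 scars with traction lay above the sham scars. *Rela*, the transactivating subunit p65, was at 46.5, 48.4 and 47.7 CPM in the Tem1WT/WT sham libraries (replicates 1, 2 and 3 in that order, here and below) and at 139, 69.8 and 79.1 CPM with traction. The sham scars were within a narrow range, and the lowest scar with traction was well above it. Its log2 fold change was 1.02 (SE 0.27, edgeR adjusted p = 0.0429). *Nfkb2*, the precursor of p52, was at 33.6, 25.6 and 32.4 CPM in sham and at 163, 50.1 and 51.9 CPM with traction. Replicates 2 and 3 with traction were close to each other and above each sham scar, and the log2 fold change was 1.53 (SE 0.41, edgeR adjusted p = 0.0447). *Relb*, the partner of p52, was at 14.0, 10.2 and 11.6 CPM in sham and at 53.0, 17.2 and 22.6 CPM with traction. The groups did not overlap here either, and the log2 fold change was 1.37 (SE 0.38, edgeR adjusted p = 0.0480). *Nfkb1*, the precursor of p50, was at 77.7, 77.8 and 83.6 CPM in sham and at 243, 99.3 and 113 CPM with traction. Its groups also did not overlap, but the log2 fold change of 0.93 (SE 0.30) did not pass the threshold, with an adjusted p of 0.0694 from edgeR.

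Without replicate 1 of the traction group, none of the 10 members passed the threshold in edgeR. Of the 18853 genes tested 542 passed it as higher and 216 as lower in the same fit. An unadjusted p under 0.05 was reached by 3 members in that fit, and the share of all genes that reached it is not given here. The log2 fold changes of the subunit genes were then 0.74 for *Nfkb2*, 0.65 for *Rela*, 0.74 for *Relb* and 0.42 for *Nfkb1*, with adjusted p of 0.0722, 0.0929, 0.111 and 0.185. All 3 calls lay close to the threshold. The number of members called was 0 with limma-voom, with a filter that kept every gene of at least 1 count, with the replicate number as a block and when the 6 libraries compared were fitted alone. It was 7 with DESeq2, which gave a p for 8 of the 10. It was 0 also without any one of 8 other libraries and 9 without replicate 2 of the traction group. The share of all genes called is not given here for DESeq2 or for the fit without replicate 2, so 7 and 9 are not read as particular to the members.

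The ligand and the inhibitors differed from the subunit genes in how the 3 scars with traction were spread. *Tnf* was at 3.28, 2.61 and 2.74 CPM in the Tem1WT/WT sham libraries and at 101, 1.28 and 6.80 CPM with traction. One scar was far above sham, one was the lowest of all 12 and one was above the 3 sham scars, so the groups overlapped. The log2 fold change of 3.67 (SE 1.19) had an adjusted p of 0.0702 from edgeR, and without replicate 1 with traction it was 0.49.

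*Nfkbia*, which encodes the first inhibitor to be resynthesized after NF-κB activation, was at 118, 87.5 and 94.0 CPM in sham and at 1288, 117 and 116 CPM with traction. Replicates 2 and 3 with traction were above the other 2 sham scars but just under the highest. The log2 fold change of 2.34 (SE 0.77, edgeR adjusted p = 0.0729) became 0.23 without replicate 1. *Nfkbiz* was at 35.2, 36.5 and 29.1 CPM in sham and at 506, 55.5 and 33.5 CPM with traction. Here replicate 2 was also above the 3 sham scars, whereas replicate 3 was among them. The log2 fold change of 2.56 (SE 0.83, edgeR adjusted p = 0.0696) became 0.41 without replicate 1.

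*Tnfaip3*, the gene of A20, was at 34.1, 26.4 and 33.8 CPM in sham and at 366, 30.8 and 31.5 CPM with traction. Both other scars with traction lay within the sham range, and the log2 fold change of 2.18 (SE 0.79, edgeR adjusted p = 0.0927) became −0.01 without replicate 1. *Tnip1*, the gene of its partner ABIN-1, was at 48.0, 36.9 and 36.6 CPM in sham and at 209.6, 43.1 and 47.9 CPM with traction. Only replicate 1 lay above the sham range, and the log2 fold change of 1.31 (SE 0.52, edgeR adjusted p = 0.115) became 0.17 without it. *Birc3*, the gene of cIAP2, was at 66.8, 51.7 and 70.0 CPM in sham and at 277, 89.8 and 58.0 CPM with traction. Replicates 1 and 2 with traction were above the sham range and replicate 3 was within it, and the log2 fold change of 1.17 (SE 0.44, edgeR adjusted p = 0.102) became 0.23 without replicate 1.

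Relative to the mean of the sham group, replicate 1 with traction was at 35.3 times for *Tnf*, 15.1 times for *Nfkbiz*, 12.9 times for *Nfkbia* and 11.6 times for *Tnfaip3*. It was at 5.32 times for *Nfkb2*, 5.17 times for *Tnip1*, 4.44 times for *Relb*, 4.42 times for *Birc3*, 3.05 times for *Nfkb1* and 2.93 times for *Rela*. Replicates 2 and 3 ordered the genes otherwise: the subunit genes were at 1.25 to 1.64 times in replicate 2 and at 1.42 to 1.89 times in replicate 3, whereas *Tnfaip3* was at 0.980 and 1.00 times and *Nfkbia* at 1.18 and 1.16 times. *Nfkbiz* and *Birc3* in replicate 2 (1.65 and 1.43 times) and *Tnf* in replicate 3 (2.37 times) were as high as the subunit genes or higher. In these 2 scars 6 and 5 of the 10 members were above each sham scar, against 31.9% and 36.8% of all genes, and in replicate 1 it was 10 of 10 against 35.1%. The neutrophil marker sums of these scars were also above the sham range, and their part in these levels was not tested.

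**Figure D2:**
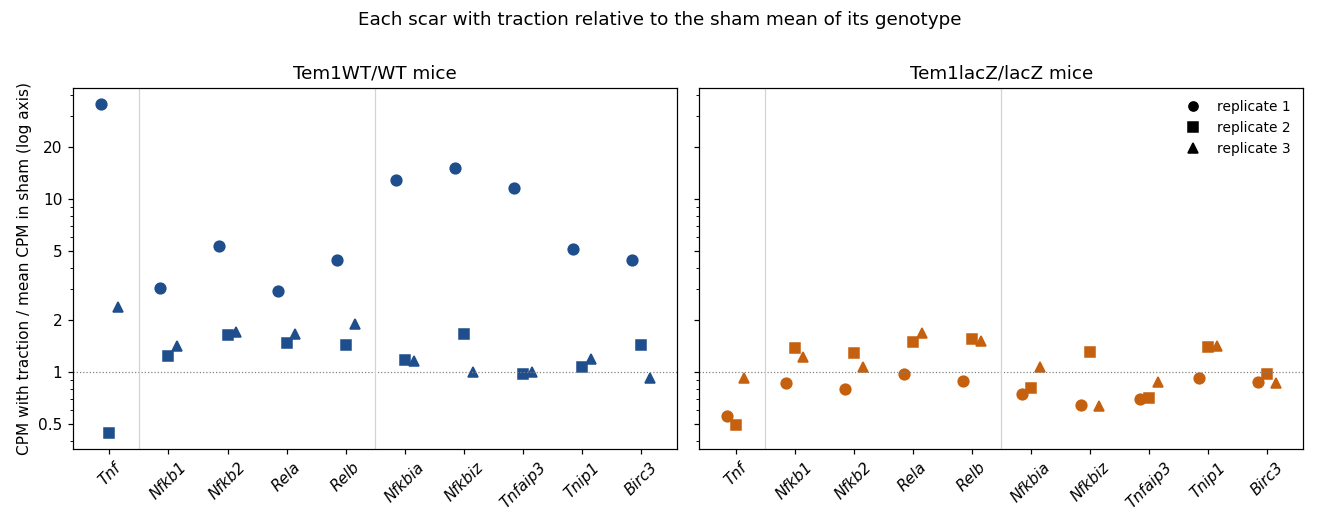
Ratio of CPM in each scar with traction to the mean CPM of the 3 sham scars of its genotype (log axis), for Tem1WT/WT mice on the left and Tem1lacZ/lacZ mice on the right, with grey lines between the ligand, the subunits and the regulators. In Tem1WT/WT mice replicate 1 reaches 35.3 times for *Tnf*, and the subunit genes are above 1 in all 3 scars, whereas in Tem1lacZ/lacZ mice the highest ratio is 1.68.

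In Tem1lacZ/lacZ mice, the same comparison of traction with sham gave 5 members with a higher and 5 with a lower fitted level, and 0 of 10 passed the threshold in edgeR. Of all genes tested 0% passed, with a smallest adjusted p of 0.598. None of the 10 members had an unadjusted p under 0.05, against 8.12% of all genes, and none had groups without overlap, against 12.9%. DESeq2 called 0 of the 8 members for which it gave a p and limma-voom called 0 of 10. In limma-voom 2 members had an unadjusted p under 0.05. The share of all genes in limma-voom is not given here, and the 8.12% from edgeR is no measure of it.

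The ligand *Tnf* was at 5.38, 4.63 and 1.74 CPM in the Tem1lacZ/lacZ sham libraries and at 2.19, 1.93 and 3.60 CPM with traction, and the scars with traction lay within the sham range. Its log2 fold change was −0.60 with a 95% interval from −3.02 to 1.81. *Nfkbia* was at 91.1, 78.6 and 83.4 CPM in sham and at 63.0, 68.0 and 89.8 CPM with traction. *Tnfaip3* was at 37.9, 21.9 and 22.4 CPM in sham and at 19.2, 19.4 and 24.1 CPM with traction. For both inhibitors 2 of the 3 scars with traction were below each sham scar and the third was within the sham range. The log2 fold changes were −0.20 for *Nfkbia* (95% interval −1.81 to 1.42) and −0.39 for *Tnfaip3* (95% interval −2.08 to 1.30). *Nfkbiz* was at 51.7, 37.0 and 35.6 CPM in sham and at 26.8, 54.1 and 26.4 CPM with traction, with 1 scar above and 2 below the sham range.

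Of the subunit genes, *Rela* was at 37.1, 27.0 and 30.4 CPM in the Tem1lacZ/lacZ sham libraries and at 30.7, 47.1 and 53.0 CPM with traction. Replicates 2 and 3 with traction lay above the 3 sham scars and replicate 1 did not, and the log2 fold change was 0.47 (95% interval −0.12 to 1.06, edgeR adjusted p = 0.651). *Relb* was at 10.7, 8.21 and 8.22 CPM in sham and at 8.03, 14.1 and 13.7 CPM with traction, in the same order of replicates. *Nfkb2* was at 33.5, 24.7 and 24.1 CPM in sham and at 21.8, 35.4 and 29.4 CPM with traction, and *Nfkb1* at 84.2, 70.3 and 68.5 CPM and at 64.3, 102 and 91.1 CPM. Replicate 1 with traction was the lowest of the 6 libraries for each of these 3 genes. Their log2 fold changes were 0.40 for *Relb* (95% interval −0.43 to 1.23), 0.07 for *Nfkb2* (95% interval −0.81 to 0.96) and 0.21 for *Nfkb1* (95% interval −0.45 to 0.86). The interval of *Rela* includes the value fitted in Tem1WT/WT mice, 1.02.

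*Birc3* was at 72.0, 58.3 and 65.7 CPM in sham and at 57.4, 63.5 and 56.6 CPM with traction in Tem1lacZ/lacZ mice, and *Tnip1* was at 39.9, 27.7 and 24.9 CPM in sham and at 28.4, 43.1 and 43.8 CPM with traction. *Birc3* had 2 scars with traction just below the sham range and *Tnip1* had 2 above it. Their log2 fold changes were −0.14 and 0.32. By mouse, 0, 6 and 4 of the 10 members were above each Tem1lacZ/lacZ sham scar in replicates 1, 2 and 3 with traction, against 23.1%, 33.3% and 30.8% of all genes. The neutrophil marker sum was 188 to 226 CPM in Tem1lacZ/lacZ sham and 553, 303 and 272 CPM with traction. In replicates 1, 2 and 3 with traction 7, 2 and 2 of the 10 members were below each sham scar, against 21.2%, 32.9% and 32.3% of all genes.

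**Figure D3:**
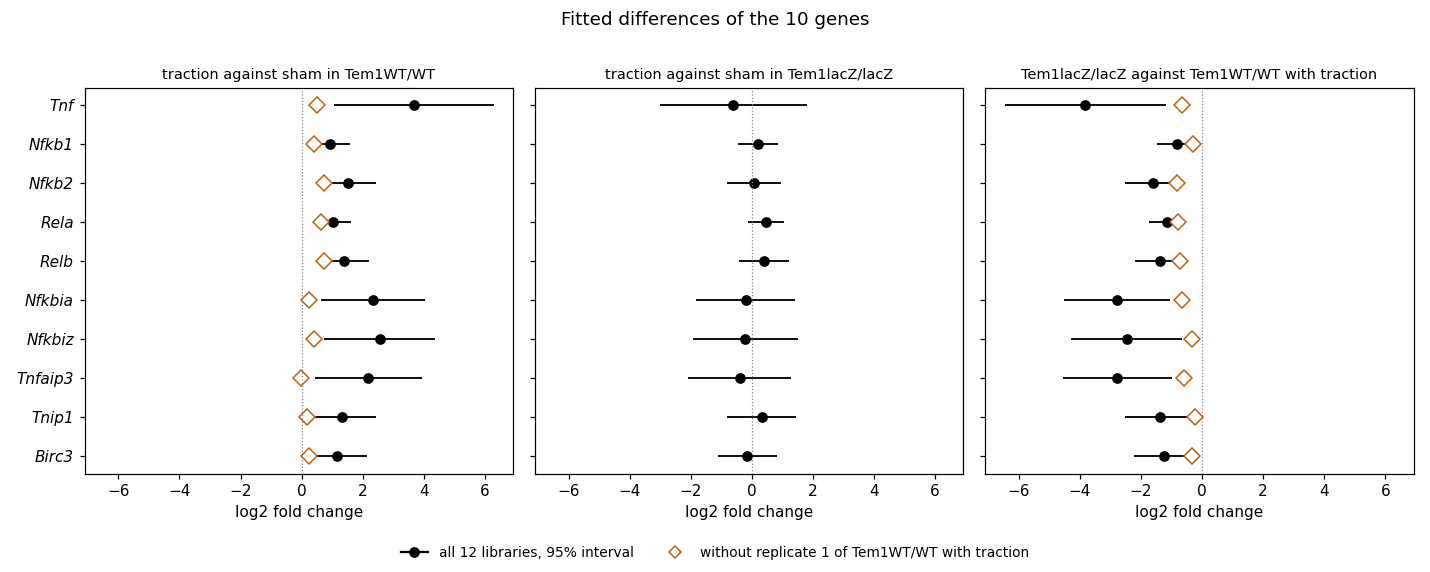
Fitted log2 fold changes of the 10 genes from edgeR with their 95% intervals (black, all 12 libraries) in 3 comparisons, and the values without replicate 1 of the Tem1WT/WT traction group (open diamonds) in the comparisons that use it. The Tem1WT/WT traction values run from 0.93 to 3.67 and move to between −0.01 and 0.74 without that library.

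With traction, Tem1lacZ/lacZ scars had lower fitted levels than Tem1WT/WT scars for all 10 members, from a log2 fold change of −0.82 for *Nfkb1* to −3.82 for *Tnf*, with a median of −1.50 (−0.61 without replicate 1 of the Tem1WT/WT traction group). This comparison shares the Tem1WT/WT traction libraries with the one above, so the values are not independent of it. None of the 10 passed the threshold in edgeR, where 0.106% of all genes did, and all 10 had an unadjusted p under 0.05, as did 26.1% of all genes. DESeq2 called 6 of the 8 members for which it gave a p (*Tnf*, *Nfkbiz*, *Nfkb2*, *Rela*, *Relb* and *Birc3*) and limma-voom called 0. The share of all genes called by DESeq2 is not given here, and the 0.106% from edgeR is no measure of it. The smallest adjusted p in edgeR was that of *Rela*, 0.0891 at a log2 fold change of −1.14 (SE 0.27).

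For 5 of the 10 members the libraries of the genotypes did not overlap with traction, with Tem1lacZ/lacZ lower, against 13.7% of all genes. These were *Tnfaip3* (30.8 to 366 CPM in Tem1WT/WT and 19.2 to 24.1 CPM in Tem1lacZ/lacZ), *Nfkbia* (116 to 1288 and 63.0 to 89.8 CPM), *Nfkb2* (50.1 to 163 and 21.8 to 35.4 CPM), *Rela* (69.8 to 139 and 30.7 to 53.0 CPM) and *Relb* (17.2 to 53.0 and 8.03 to 14.1 CPM). For these genes each Tem1WT/WT scar with traction was above each Tem1lacZ/lacZ scar with traction. The part of neutrophil content in this difference was not tested. For *Tnf*, *Nfkbiz*, *Nfkb1*, *Birc3* and *Tnip1* the genotypes overlapped.

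Without replicate 1 of the Tem1WT/WT traction group all 10 differences kept their sign and were smaller, from −0.24 for *Tnip1* to −0.82 for *Nfkb2*, with *Rela* at −0.77, *Relb* at −0.73, *Nfkbia* at −0.67 and *Tnf* at −0.65. None passed the threshold in edgeR, and the smallest adjusted p among the 10 was 0.143. Without replicate 2 of that group 6 members passed it: *Tnf*, *Tnfaip3*, *Nfkbia*, *Nfkb2*, *Rela* and *Relb*. The share of all genes that passed in that fit is not given here.

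In the sham groups, 7 members had a lower and 3 a higher fitted level in Tem1lacZ/lacZ than in Tem1WT/WT mice, and 0 of 10 passed the threshold in edgeR or limma-voom and 0 of the 8 with a p in DESeq2. Of all genes 0.0106% passed it in edgeR. *Rela* was the 1 member with an unadjusted p under 0.05, against 11.7% of all genes, and the 1 member whose libraries did not overlap, with Tem1lacZ/lacZ lower, against 13.8% of all genes. Its 3 Tem1lacZ/lacZ sham scars, at 27.0 to 37.1 CPM, were below the 46.5 to 48.4 CPM of Tem1WT/WT sham, with a log2 fold change of −0.59 (95% interval −1.18 to −0.01, edgeR adjusted p = 0.427). *Rela* was therefore lower without *Tem1* in both treatments in these libraries, without passing the threshold in either. For *Tnf* the interval of the sham difference ran from −1.96 to 2.85, which leaves changes of both directions open in size.

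The genotype by traction interaction tests whether traction moved a gene by a different amount in the 2 genotypes. It was negative for all 10 members, which means a smaller fitted rise or a fall in Tem1lacZ/lacZ mice, but 0 of 10 passed the threshold in edgeR, as for 0% of all genes. An unadjusted p under 0.05 was reached by 5 of the 10 (*Tnf*, *Tnfaip3*, *Nfkbia*, *Nfkbiz* and *Nfkb2*), against 8.91% of all genes, and by 0 of 10 in limma-voom. In DESeq2, which gave no p for *Tnfaip3* and *Nfkbia*, it was reached by 4 of 8. The shares of all genes in limma-voom and DESeq2 are not given here. Both tools called 0 members. The values were −4.27 for *Tnf* (SE 1.59), −2.77 for *Nfkbiz* (1.12), −2.57 for *Tnfaip3* (1.10), −2.54 for *Nfkbia* (1.05) and −1.46 for *Nfkb2* (0.57), each with an adjusted p of 0.548 from edgeR. Without replicate 1 of the Tem1WT/WT traction group they were −1.09 for *Tnf*, −0.62 for *Nfkbiz*, −0.38 for *Tnfaip3*, −0.42 for *Nfkbia* and −0.67 for *Nfkb2*, and the median of the 10 was −0.38 against −1.39 with it. The interaction of *Tnip1* was then 0.15. The difference between the genotypes in the response to traction was thus not shown for any member.

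To compare levels between genes, CPM was divided by the length of the exons of each gene in kilobases (GENCODE vM21), giving CPM per kb. In Tem1WT/WT sham scars *Nfkbia* was the highest at 62.1 ± 10.1 CPM per kb (SD, n = 3), and *Rela* was next at 15.5 ± 0.318 CPM per kb (SD, n = 3). *Birc3* at 12.5 ± 1.95 and *Tnip1* at 11.4 ± 1.84 CPM per kb (SD, n = 3) did not differ beyond their spread. *Nfkbiz* at 6.70, *Nfkb2* at 6.66 and *Nfkb1* at 6.61 CPM per kb were also within the spread of each other. *Tnfaip3* at 4.35, *Relb* at 3.07 and *Tnf* at 1.75 CPM per kb formed the lower end, and the 3 sham libraries of each did not overlap with those of the next. The inhibitor *Nfkbia* was the highest of the 10 also in the other 3 groups, at 52.4 ± 3.94 CPM per kb in Tem1lacZ/lacZ sham and 45.7 ± 8.86 CPM per kb in Tem1lacZ/lacZ traction (SD, n = 3). In Tem1WT/WT scars with traction it ranged from 72.3 to 800 CPM per kb, and *Tnf* from 0.781 to 61.9 CPM per kb. Exons of *Nfkb2* overlap those of genes on the other strand, *Psd* and AC114539.1, and the strand setting of the counting is not given in the sources used here, so reads of these genes may not be told apart.

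Other genes of the pathway were taken from lists by role. With traction in Tem1WT/WT mice 5.61% of all genes tested were called higher, 3.54% were called lower and 31.4% had an unadjusted p under 0.05. These shares stand beside each list count below. Of 7 further TNF family ligands, receptors and shedding factors, 2 rose with traction in Tem1WT/WT mice and the 7 had a median log2 fold change of 1.10 (0.35 without replicate 1 of the traction group). *Tnfrsf1a*, the gene of TNF receptor 1, was at 100.1, 98.3 and 100.1 CPM in sham and at 348, 164 and 180.4 CPM with traction. All 3 scars with traction were above the sham scars, and the log2 fold change was 1.21 (SE 0.26, edgeR adjusted p = 0.0314). It was 0.79 without replicate 1 of the traction group and still passed the threshold, with an adjusted p of 0.0428. This call was lost in 4 of 15 alternative fits, which are described with the processing. *Ltbr*, the lymphotoxin β receptor, which signals to the non-canonical dimer, was at 46.1, 47.6 and 44.9 CPM in sham and at 79.3, 64.1 and 73.4 CPM with traction, a log2 fold change of 0.64 (adjusted p = 0.0403). Without replicate 1 it was 0.57, with an adjusted p of 0.0830, and 9 of 15 alternative fits lost the call.

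Among 11 adaptors and ubiquitin ligases of the receptor complex, 3 rose in the same comparison: *Ripk1* (log2 fold change 0.91), *Rnf31*, the catalytic subunit of the linear ubiquitin ligase (0.89), and *Tradd* (0.74). Their libraries did not overlap between the groups, and none of the 3 passed the threshold without replicate 1 of the traction group. Of 15 alternative fits 9 lost the call of *Ripk1*, and 10 each lost those of *Rnf31* and *Tradd*. Of the 8 kinases and kinase subunits, which include the IκB kinases *Chuk* and *Ikbkb*, 0 passed the threshold in edgeR. An unadjusted p under 0.05 was reached by 3 of the 8, near the share of 31.4% of all genes. Their median log2 fold change was 0.01, and −0.04 without replicate 1. *Chuk* and *Ikbkb* were at 0.05 and 0.08.

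Of the 5 other *Rel* and IκB family genes 3 rose: *Nfkbid* (IκBNS), *Nfkbie* (IκBε) and *Bcl3*. *Nfkbie* was at 6.80, 4.96 and 7.67 CPM in Tem1WT/WT sham and at 55.9, 14.1 and 14.0 CPM with traction, a log2 fold change of 2.11 (SE 0.50, edgeR adjusted p = 0.0349). The other 2 scars with traction were almost equal and above the sham range, and without replicate 1 the log2 fold change was 1.12 with an adjusted p of 0.0498. The call of *Nfkbie* was lost in 4 of 15 alternative fits. *Bcl3*, a nuclear partner of p50 and p52, was at 11.4, 12.5 and 13.1 CPM in sham and at 85.1, 31.2 and 27.1 CPM with traction (log2 fold change 1.95, edgeR adjusted p = 0.0333). *Nfkbid* had a log2 fold change of 3.63 (adjusted p = 0.0397). Without replicate 1 these 2 were at 1.24 and 1.22, past the threshold for neither. Of the 9 other negative regulators, 0 passed it in edgeR and 1 had an unadjusted p under 0.05, against 31.4% of all genes. They ran from −1.23 for *Tnip3* to 2.75 for *Zfp36*, both named after their values were seen, with a median of 0.12 and of −0.05 without replicate 1.

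**Figure D4:**
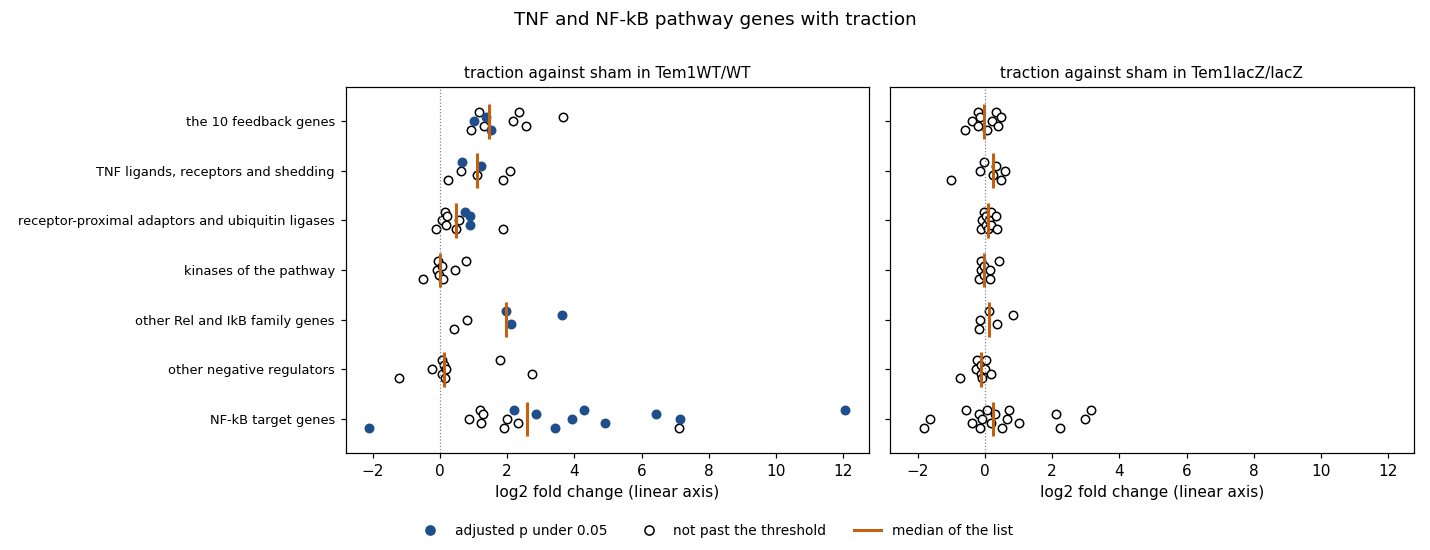
Log2 fold changes of the genes of each list (points, edgeR) with traction in Tem1WT/WT mice on the left and in Tem1lacZ/lacZ mice on the right, filled where the adjusted p was under 0.05, with the list's median as a bar. The medians in Tem1WT/WT mice run from 0.01 for the kinases to 2.59 for the target genes, and no point is filled in Tem1lacZ/lacZ mice.

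Of 18 NF-κB target genes outside the circuit, 9 rose and 1 fell with traction in Tem1WT/WT mice, against 5.61% and 3.54% of all genes. The median log2 fold change of the 18 was 2.59 (1.12 without replicate 1 of the traction group). Among the called genes the 4 with the largest changes encode inflammatory mediators, and *Cxcl2*, named after its values were seen, had a log2 fold change of 7.10 that did not pass the threshold (edgeR adjusted p = 0.0637). *Cxcl5*, a neutrophil-attracting chemokine, was at 0.478, 1.23 and 1.93 CPM in sham and at 352, 114 and 55.9 CPM with traction, and all 3 scars with traction were far above sham. Its log2 fold change was 7.15 (SE 1.07, edgeR adjusted p = 0.0217) and 6.11 without replicate 1. *Il1b*, the gene of interleukin-1β, was at 5.90, 6.53 and 32.6 CPM in sham and at 3698, 86.0 and 84.9 CPM with traction. *Ptgs2*, the inducible cyclooxygenase, was at 5.88, 4.67 and 14.9 CPM in sham and at 686, 50.0 and 34.6 CPM with traction. These 2 genes also showed no overlap, with log2 fold changes of 6.42 and 4.92 that became 2.51 and 2.31 without replicate 1 and no longer passed the threshold. *Csf3*, the gene of the granulocyte growth factor G-CSF, had 0 counts in the 3 sham libraries and 1248, 58 and 60 counts with traction, at least 204-fold higher against a floor of 3 counts per library and at least 23.9-fold over replicates 2 and 3 alone, and the median of the list was also 2.59 with *Csf3* at this bound. The gene that fell was *Ccl20*, named after its values were seen, a chemokine for dendritic and T cells, from 8.97, 2.52 and 3.87 CPM to 0.785, 1.83 and 0.945 CPM (log2 fold change −2.10, edgeR adjusted p = 0.0352).

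Without replicate 1 of the traction group, 4 of the 18 targets rose and 0 fell, 1 of the 7 receptors and ligands and 1 of the 5 *Rel* and IκB genes rose, and none of the adaptors, kinases or negative regulators passed the threshold. Of the 18853 genes tested 542 rose and 216 fell in that fit. Over 21 alternative fits the calls numbered 0 to 4 of the receptors and ligands, 0 to 5 of the adaptors and 0 to 2 of the kinases. They numbered 0 to 3 of the *Rel* and IκB genes, 0 to 1 of the negative regulators and 0 to 14 of the targets. The shares of all genes called in these fits are not given here. In Tem1lacZ/lacZ mice none of these genes passed the threshold with traction in the main fit. Between the genotypes with traction, *Cxcl1*, a neutrophil chemokine, was the 1 gene of all these lists that passed the threshold. It was at 66.4, 37.6 and 15.8 CPM in Tem1WT/WT and at 2.17, 2.54 and 1.38 CPM in Tem1lacZ/lacZ scars with traction, without overlap. Its log2 fold change was −4.30 (SE 0.62, edgeR adjusted p = 0.0335) and −3.72 without replicate 1 of the Tem1WT/WT group, where the adjusted p was 0.0432. Of 15 alternative fits 9 kept this call and 6 lost it, with log2 fold changes of −4.68 to −3.72.

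Only some cell type markers moved with these levels, and the endothelial and fibroblast sums did not peak in replicate 1 of the Tem1WT/WT traction group. In Tem1WT/WT mice 6 of the 10 tested neutrophil markers rose with traction, against 5.61% of all genes. They included *S100a8*, *S100a9*, *Cxcr2* and *Csf3r*, and the median log2 fold change over the 10 was 4.69. The defining marker *Ly6g*, 1 of the 2 listed markers that did not pass the filter on low counts, had 0 counts in the 3 sham libraries and 158, 8 and 2 counts with traction. Without replicate 1 of the traction group the median was 1.27 and 2 markers passed the threshold as higher, as did 542 of the 18853 genes tested. Summed macrophage and monocyte markers were at 2777 to 4637 CPM in Tem1WT/WT sham and 4365 to 5730 CPM with traction, which overlap. Summed endothelial markers were at 325 to 489 CPM in sham and 817 to 943 CPM with traction, and replicate 1 was the lowest of the 3 scars with traction. Of the 8 endothelial markers 5 rose with traction, against 5.61% of all genes. Without replicate 1 of the traction group 5 also rose, as did 542 of the 18853 genes tested. T cell markers were at 35.8 to 59.2 CPM in sham and at 123, 30.8 and 24.1 CPM with traction. Summed fibroblast markers were at 26586 to 42176 CPM in sham and 44369 to 111543 CPM with traction, again with replicate 1 the lowest with traction. All 8 skeletal muscle markers had lower fitted levels with traction, with a median log2 fold change of −2.80. Each had an unadjusted p under 0.05, against 31.4% of all genes, but 0 were called in edgeR. Without replicate 1 of the traction group 6 of these muscle markers were called lower, as were 216 of the 18853 genes tested. The muscle marker sum was at 1336 to 13306 CPM in sham and at 2144, 344 and 339 CPM with traction. Summed adipocyte markers were at 1017 to 1447 CPM in sham and at 1161, 173 and 325 CPM with traction. Summed keratinocyte markers overlapped, at 12885 to 17368 CPM in sham and 14764 to 21659 CPM with traction. The part of these cells in the levels of the 10 members was not tested.

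**Figure D5:**
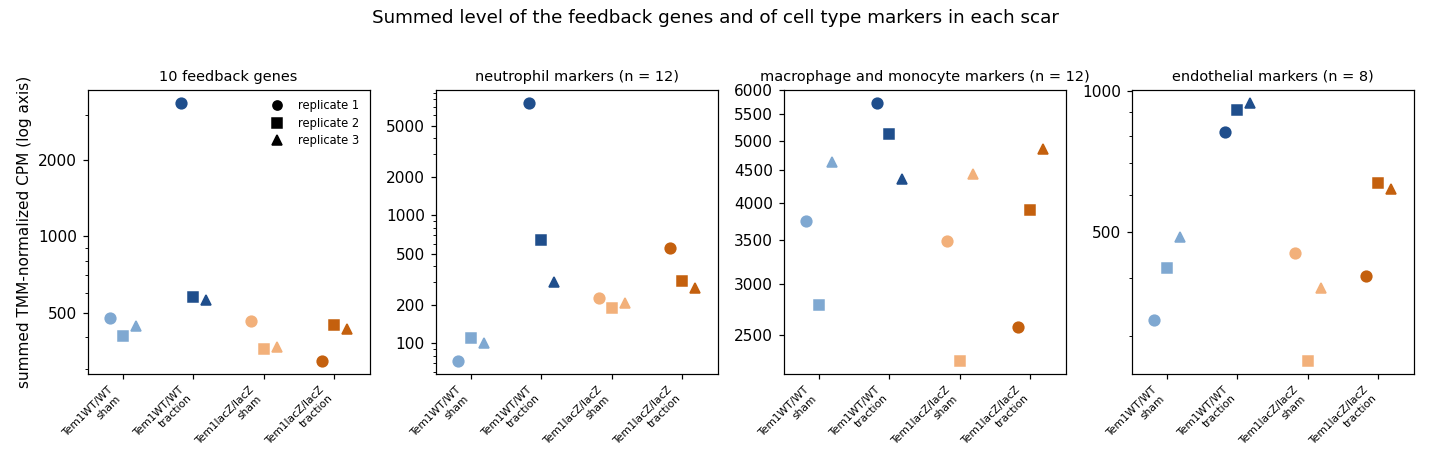
Summed TMM-normalized CPM (log axis) of the 10 genes and of neutrophil, macrophage and monocyte, and endothelial markers in each of the 12 scars. Replicate 1 of the Tem1WT/WT traction group is the highest for the 10 genes (3347 CPM) and for the neutrophil markers (7556 CPM), and the lowest of its group for the endothelial markers (817 CPM).

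Summed over the 10 members, the level was 404 to 478 CPM in Tem1WT/WT sham, 3347, 574 and 561 CPM with traction, 358 to 464 CPM in Tem1lacZ/lacZ sham and 322 to 449 CPM in Tem1lacZ/lacZ with traction. Replicates 2 and 3 of the Tem1WT/WT traction group were thus above the other 9 libraries too. Their neutrophil marker sums were 638 and 301 CPM, against 272 to 553 CPM in the Tem1lacZ/lacZ scars with traction. The genes within the sum differed, so it does not show equal neutrophil content. With traction the median of *S100a9* was 141 CPM in both genotypes. The medians in Tem1WT/WT and Tem1lacZ/lacZ scars were 285 and 39.7 CPM for *Csf3r* and 106 and 27.8 CPM for *Cxcr2*. The endothelial sums of these replicates 2 and 3 were 908 and 943 CPM against 402 to 637 CPM, and their fibroblast sums 72743 and 111543 CPM against 22916 to 50212 CPM. The part of these cells in the levels of the members was not tested.

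Across the 12 libraries, the subunit genes followed each other more closely than the other members did. Spearman correlations of the 6 pairs of subunit genes had a median of 0.87 (0.76 to 0.97). Those of the 15 pairs among the other 6 members had a median of 0.48 (0 to 0.90), and those of the 24 pairs between the sets a median of 0.50. Without replicate 1 of the Tem1WT/WT traction group, over 11 libraries, the medians were 0.83, 0.32 and 0.35. These are descriptions over libraries that share group and depth. Among the 13636 genes whose mean log2 CPM reached 1, those whose levels ranked the 12 libraries most like *Tnf* were *Aar2* (Spearman 0.90), *Trp53inp2* (0.88) and *Acp5* (0.87). Over 11 libraries these were at 0.88, 0.85 and 0.85. *Aar2* was at 17.8 to 24.2 CPM in Tem1WT/WT scars with traction, where *Tnf* was at 1.28 to 101 CPM. The genes named here were picked as the highest of all those compared, so the size of their correlations was selected for. Those most like *Nfkbia* were *Ero1lb* (0.98), *Sqstm1* (0.97) and *Stk40* (0.95), and over 11 libraries they were at 0.97, 0.96 and 0.94. *Sqstm1* was at 251 to 334 CPM in Tem1WT/WT sham and 307 to 552 CPM with traction, and *Stk40* at 46.6 to 58.1 CPM and 50.3 to 137 CPM.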

How the data were processed

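Scars of 3 male mice in each of 4 groups were sequenced from stranded poly(A) libraries as 150-base paired reads. Per the study's methods and the submitters' processing notes, reads were trimmed with fastp 0.20.0, aligned to GRCm38 with HISAT2 2.1.0 and counted on genes with featureCounts 2.0.0. The annotation, strand setting and treatment of reads with several alignments are not given in the sources used here. The authors deposited raw whole-number counts, 1 file a library. Library totals were between 41536788 and 64644293 counts. No 2 libraries of a group were copies of each other.

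Counts were analysed in R 4.3.3 with edgeR 4.0.16: filterByExpr by group, TMM normalization and a robust quasi-likelihood fit of a single model of the 4 groups with 8 residual degrees of freedom. All tests were two-sided, and adjusted p-values are Benjamini-Hochberg values over 18853 genes with a threshold of 0.05. Intervals (95%) follow from the fitted standard errors. The fit was tested on simulated data first. As alternatives, the filter was widened to any gene with at least 1 count or narrowed to at least 10 counts in each library, with DESeq2's size factors or upper quartile normalization in edgeR, DESeq2 1.42.0, limma-voom (limma 3.58.1) with sample weights, a non-robust fit, a replicate block, a fit of the 6 libraries compared alone, and the omission of each library in turn. Lengths came from GENCODE vM21 and promoters from RefSeq (GRCm38.p6). Plots were made with matplotlib 3.10.9 (Python 3.11.15).

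The members and lists were chosen with earlier results of these data known. Named were all 10 members, Cd248, up to 4 called genes per pathway list and comparison by size of change, and for Tnf and Nfkbia the 3 genes most alike in rank. Other pathway and marker genes are named as examples of their lists.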

Additional observations from a re-analysis of the deposited data

How the results depend on the processing

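Of the 50 values of the 10 members in 5 comparisons, 27 kept their direction and their side of the threshold under all alternatives that were run. With traction in Tem1WT/WT mice, 3 members passed the threshold, and the number was 0 with all genes of at least 1 count, with limma-voom and with only the 6 libraries compared, and 7 with DESeq2, which gave no p for Tnfaip3 and Nfkbia in any comparison. It was 0 with the replicate block as well, where 1467 genes passed in all. Residuals of same-numbered libraries correlated at −0.32 to 0.25, over 0.1 in 8 of 18 pairs, and those of other numbers at −0.40 to 0.37, over 0.1 in 2 of 36 pairs. Of the 12 libraries, 8 correlated best with a library of their own number. Not every same-numbered pair was over 0.1, and the main fit did not use the numbers as pairs. Whether same-numbered mice shared a batch is not given in the sources used here. The block changed no other count. Upper quartile normalization left 2 of the 3 calls, and it moved the median of all genes by about −0.12 in this comparison and 0.14 between the genotypes with traction. Leaving out 1 library at a time gave 0 to 9 members: 0 without any of the 3 libraries of Tem1WT/WT sham or of Tem1lacZ/lacZ sham, without replicate 1 of Tem1WT/WT traction and without replicates 2 and 3 of Tem1lacZ/lacZ traction, and 9 without replicate 2 of Tem1WT/WT traction. Between the genotypes with traction 0 members passed, 6 with DESeq2 and 0 to 6 with 1 library left out. The shares of all genes called in this comparison under these alternatives are not given here. The sign turned for 6 of the 50 values. With limma-voom, Tnf was at 0.0739 for traction in Tem1lacZ/lacZ mice and at −0.0721 for genotype in sham, and the interaction of Tnip1 was at 0.00736. With 1 library left out, the interaction of Tnip1 ranged from −1.37 to 0.151, Birc3 for genotype in sham from −0.0420 to 0.155, Nfkb2 for traction in Tem1lacZ/lacZ mice from −0.0956 to 0.244 and Tnfaip3 for traction in Tem1WT/WT mice from −0.0125 to 2.67. The causes were not tested. The biological coefficient of variation from the common dispersion fitted over all genes was 34.2%. Tnf, the member with the fewest counts, had 58 to 4265 counts in Tem1WT/WT mice with traction.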
